A study of Mus musculus with 12 samples.

Results

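Heat shock proteins and their co-chaperones were examined in mouse skeletal muscle as a set of 10 genes listed by symbol: Hspa1a, Hspa1b, Hspa8, Hsph1, Hsp90aa1, Hspb1, Hspb7, Cryab, Dnajb1 and Bag3. Of the 26570 genes in the count tables, 7 were members. Hspa8, Hspb1, Hspb7, Cryab and Bag3 had counts in all 12 libraries, while Hsph1 and Hsp90aa1 were analysed in the HFD and Chow libraries only. Hspa1a, Hspa1b and Dnajb1 were not analysed here.

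The libraries were made from skeletal muscle RNA of C57BL/6N mice and form 4 groups of 3. PCN mice were on a high-fat diet and received 50 mg/kg of PCN by intraperitoneal injection, once daily over 4 days (pregnenolone carbonitrile, a steroid that activates the rodent pregnane X receptor). Vehicle mice, on the same diet, received corn oil with 30% DMSO on the same schedule. HFD mice ate the high-fat diet and Chow mice regular chow, and neither had a treatment. The diets began at 6 weeks of age and lasted 18 weeks. The labels do not name the muscle sampled, and they do not say that each library came from a separate animal, so p-values measure the spread between these libraries, which may in part be technical.

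Chaperones hold unfolded or damaged proteins and help them refold or pass to degradation. Hspa8 encodes the constitutive HSP70 of the cytosol, Hsph1 an HSP110 that exchanges nucleotide on HSP70, and Hsp90aa1 the stress-inducible cytosolic HSP90. Hspb1, Hspb7 and Cryab encode small heat shock proteins, which bind the sarcomere and the cytoskeleton without ATP. Bag3 links HSP70 to small heat shock proteins and directs damaged Z-disc proteins such as filamin C to autophagy. Many of these genes are turned on by heat shock factor 1 through promoter elements made of repeated GAA and TTC units, and muscle small heat shock proteins are known to be abundant in oxidative fibres.

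Promoter sequence from RefSeq (GRCm38.p6) was found for 4 of the 7 members: Hspb1, Hsph1, Bag3 and Hspb7. The stretches below show, in capitals, the 3-unit match of Hsph1 and the GAANNTTC matches of Hspb1 and Bag3.
Hspb1, chr5:135887787-135887844, plus strand: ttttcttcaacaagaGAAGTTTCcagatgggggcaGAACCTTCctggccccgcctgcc
Hsph1, chr5:149636287-149636308, minus strand: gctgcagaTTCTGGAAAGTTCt
Bag3, chr7:128523614-128523632, plus strand: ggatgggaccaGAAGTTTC
The Hspb1 stretch holds GAANNTTC at 2 places, which begin 117 and 97 bases before the annotated start. The Hsph1 stretch holds a 3-unit form, TTCNNGAA followed after another 2 bases by TTC, beginning at base 37 counted from 1 at the upstream of its 2 RefSeq starts. The Bag3 stretch holds 1 copy of GAANNTTC, beginning at base 43 counted from its RefSeq start. Among 32851 promoters of 300 bases, 0.603% held the 3-unit form on either strand, and 7.86% held GAANNTTC, which reads the same on both strands. TTCNNGAA, the other 2-unit form, was in 8.52% of promoters. It reads the same on both strands too, and both 2-unit forms are contained in the 3-unit form. The Hsph1 window held TTCNNGAA at 2 places, of which the one within the 3-unit match is shown. The Hspb7 window held none of these letters. A match is a description of sequence and not evidence of binding.

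Libraries are named by their group and the number in their label, as in Chow 17. Library totals ran from 12770308 to 19739226 counts. Levels are given as CPM, counts scaled to library size, after TMM normalisation over all 12 libraries. All 10 skeletal muscle fibre markers, among them Acta1 (skeletal actin) and Ckm (muscle creatine kinase), were above 0 in every library, with summed levels of 212270 to 310020 CPM in PCN, 224340 to 293190 CPM in Vehicle, 291680 to 413550 CPM in HFD and 247540 to 318320 CPM in Chow. Ttn (titin) made up much of these sums, averaging 139516 CPM in PCN, 114823 in Vehicle, 207679 in HFD and 149640 in Chow. Ckm averaged 16968 CPM in PCN, 17003 in Vehicle, 13097 in HFD and 16012 in Chow, so the sums do not give the order of every marker. Libraries of the same group differed in slow-fibre transcripts. The slow myosin gene Myh7 was at 1.12, 2.12 and 2.10 CPM in HFD 30, 38 and 4, and at 196, 330 and 2.44 CPM in Chow 17, 19 and 8. Chow 17 and Chow 19 stood apart from Chow 8 and from HFD. Over the 9 of 10 slow-fibre markers analysed in these tables, the summed level was 61.3 to 88.4 CPM in HFD, and 773, 847 and 69.1 CPM in Chow 17, 19 and 8. The 3 slow-fibre markers analysed in all 12 libraries (Tpm3, Casq2 and Myh7b) summed to 17.9 to 141 CPM in PCN, with PCN 5 the highest, and to 16.6 to 68.8 CPM in Vehicle, with Vehicle 55 the highest. They summed to 21.2 to 40.6 CPM in HFD and 29.2 to 119 CPM in Chow. Myh7b was at 0 in PCN 11. In bulk samples, fewer cells of a type and less RNA per cell cannot be told apart.

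Hspa8 was the steadiest of the 5 members analysed in all libraries. It lies on chromosome 9 (40800984 to 40810087, GRCm38) and its exon models hold 3 small nucleolar RNA genes of 86 to 90 bases each. Its level was 894, 1030 and 838 CPM in PCN 11, 27 and 5, and 841, 804 and 1022 CPM in Vehicle 15, 23 and 55. In HFD 30, 38 and 4 it was at 1007, 950 and 887 CPM, and in Chow 17, 19 and 8 at 1309, 917 and 1146 CPM. All 4 groups overlapped, and the highest library held 1.63 times the level of the lowest.

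Cryab, which encodes alpha-B crystallin, lies on chromosome 9 (50751325 to 50756636). In PCN 11, 27 and 5 it was at 154, 115 and 401 CPM, and in Vehicle 15, 23 and 55 at 156, 241 and 579 CPM. In HFD 30, 38 and 4 it was at 399, 301 and 188 CPM, and in Chow 17, 19 and 8 at 507, 429 and 312 CPM. PCN 5 and Vehicle 55 each held more than the other libraries of their group, and the Chow libraries ran from the middle to near the top. The exons of Hspb2, a small heat shock gene on the opposite strand, cover 17.0% of Cryab exon bases, and reads there cannot be assigned without a stated strand setting.

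Hspb7, a small heat shock protein of heart and skeletal muscle that binds filamin C, lies on chromosome 4 (141420779 to 141425311). It was at 58.7, 149 and 452 CPM in PCN 11, 27 and 5, and at 55.9, 128 and 324 CPM in Vehicle 15, 23 and 55. HFD 30, 38 and 4 held 368, 204 and 116 CPM, and Chow 17, 19 and 8 held 402, 780 and 219 CPM. The highest library, Chow 19, had 13.95 times the level of the lowest, Vehicle 15, and each group spanned at least 3.17 times.

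Hspb1, which encodes the actin-binding HSP27 homologue, lies on chromosome 5 (135887919 to 135889563). Its levels were 50.0, 103 and 109 CPM in PCN 11, 27 and 5, and 56.8, 68.4 and 230 CPM in Vehicle 15, 23 and 55. They were 143, 63.2 and 70.2 CPM in HFD 30, 38 and 4, and 205, 121 and 110 CPM in Chow 17, 19 and 8. Vehicle 55 was the highest of the 12 libraries and the other Vehicle libraries were among the 4 lowest.

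Bag3 lies on chromosome 7 (128523616 to 128546981). Its levels were 27.8, 64.0 and 91.1 CPM in PCN 11, 27 and 5, and 41.6, 39.6 and 150 CPM in Vehicle 15, 23 and 55. It was at 125, 90.0 and 89.2 CPM in HFD 30, 38 and 4, and at 104, 150 and 81.2 CPM in Chow 17, 19 and 8. Vehicle 15 and Vehicle 23 lay below every HFD and Chow library, and Vehicle 55 above every HFD library.

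Hsph1 (chromosome 5, 149614287 to 149636376) and Hsp90aa1 (chromosome 12, 110690605 to 110702728) had HFD and Chow values only. Hsph1 was at 78.9, 73.8 and 68.8 CPM in HFD 30, 38 and 4, and at 101, 79.0 and 57.2 CPM in Chow 17, 19 and 8, so HFD lay inside the Chow range. Hsp90aa1 was at 46.2, 40.4 and 33.4 CPM in HFD 30, 38 and 4, and at 160, 46.7 and 42.3 CPM in Chow 17, 19 and 8. Chow 17 alone stood high. Chow 19 lay just above HFD 30, the highest HFD library, and Chow 8 lay within the HFD values.

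**Figure D1:**
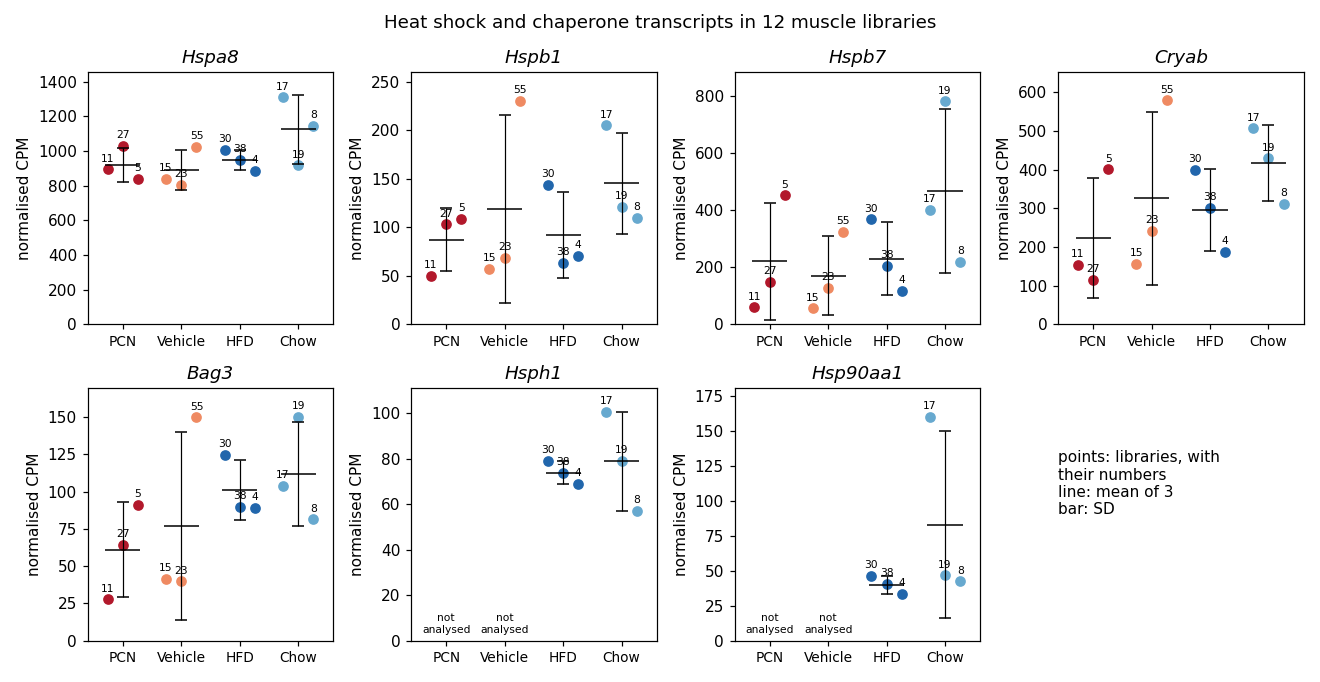
Normalised CPM of the 7 members, 1 point for each library with its number, in PCN, Vehicle, HFD and Chow; lines are means of 3 libraries and bars the SD. Vehicle 55 lies above Vehicle 15 and Vehicle 23 for Hspb1, Hspb7, Cryab and Bag3, whereas Hspa8 lies between 804 and 1309 CPM in all groups.

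Compared per kilobase of exon, Hspa8 and Cryab led the set in HFD with 220 ± 14.0 and 200 ± 71.5 CPM per kb (SD, n = 3), a pair that did not differ beyond its spread. Hspb1 at 89.5 ± 43.1 and Hspb7 at 82.8 ± 46.2 CPM per kb came next and overlapped. Bag3 followed at 39.5 ± 7.89 CPM per kb, and its libraries overlapped those of Hspb7. Hsp90aa1 at 10.2 ± 1.63 and Hsph1 at 10.2 ± 0.695 CPM per kb were the lowest pair and overlapped. In Chow the order was Cryab at 281 ± 66.5, Hspa8 at 261 ± 45.8, Hspb7 at 169 ± 103, Hspb1 at 141 ± 50.5, Bag3 at 43.6 ± 13.7, Hsp90aa1 at 21.1 ± 17.0 and Hsph1 at 10.9 ± 2.99 CPM per kb. Neighbours in that order overlapped except for Hspb1 and Bag3. In Vehicle, Cryab at 220 ± 151 and Hspa8 at 207 ± 27.2 CPM per kb again led. In PCN, Hspa8 had the higher mean at 214 ± 23.0 CPM per kb. Cryab was at 151 ± 105 CPM per kb there, a gap within the spread. Levels per kilobase divide by the union of all annotated exons, which can be longer than the expressed transcript. The order of genes therefore depends on these lengths. For Hspa8 the union was 4301 bases in 3 blocks and held 3 small nucleolar RNA genes.

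The small heat shock members Hspb7, Cryab and Hspb1, and Bag3, differed between libraries of the same group more than nearly all other genes. The pooled SD within groups, on the log2 CPM scale, was 1.15 for Hspb7, 0.75 for Cryab, 0.75 for Hspb1 and 0.74 for Bag3. The median over the 8179 genes with a mean of at least 5 CPM was 0.22. Of those genes, 99.7% had a smaller SD than Hspb7, 98.5% than Cryab, 98.5% than Hspb1 and 98.4% than Bag3. Hspa8, at 0.18, varied less than the median gene.

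**Figure D2:**
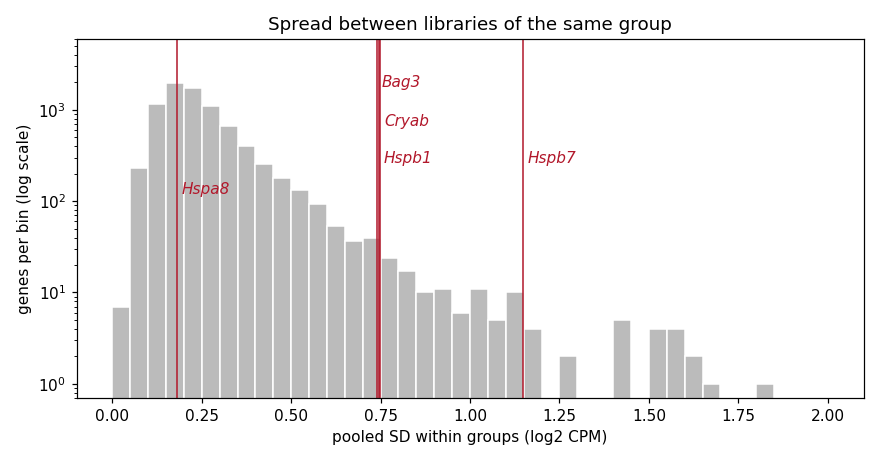
Number of genes (log scale) by pooled within-group SD of log2 CPM in bins of 0.05, over 8179 genes, with lines at the 5 members analysed in all libraries. Hspa8 lies at 0.18, left of the median of 0.22, and the others lie in the right tail, from 0.74 to 1.15.

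The 4 variable genes were high and low in overlapping sets of libraries. Vehicle 55 ranked first of 12 for Hspb1 and Cryab and second for Bag3, and Chow 19 ranked first for Hspb7 and Bag3. PCN 11 was the lowest for Hspb1 and Bag3, Vehicle 15 for Hspb7, and PCN 27 for Cryab. Other measures differed between libraries as well. The share of counts from the mitochondrial genome was 18.5% in PCN 5, 19.5% in Vehicle 55 and 20.4% in Chow 17, against 10.8% to 15.8% in the other 9 libraries. Chow 19, first for Hspb7 and Bag3, was at 15.2%, below Chow 8 at 15.8%. Myh1, the type IIx myosin, was chosen for this comparison after its values were seen. It was at 2113, 3138 and 10846 CPM in PCN 11, 27 and 5, and at 2822, 3478 and 9193 CPM in Vehicle 15, 23 and 55. In HFD 30, 38 and 4 it was at 7009, 8148 and 4700 CPM, and in Chow 17, 19 and 8 at 7553, 7120 and 6115 CPM. PCN 5 and Vehicle 55 were the highest of the 12 libraries in Myh1. For Bag3, PCN 5 ranked 5 of 12, at 91.1 CPM beside a median of 89.6 CPM. Myh4, the type IIb myosin, chosen likewise, was lowest in the same pair, at 30331 CPM in PCN 5 and 33455 CPM in Vehicle 55. Some chaperone genes, also chosen after their values were seen, did not set PCN 5 beside Vehicle 55. Ahsa2, an HSP90 co-chaperone, was at 49.9 CPM in Vehicle 55 and 38.6 CPM in Chow 17. PCN 5, at 14.3 CPM, lay within the 12.9 to 19.6 CPM of the remaining libraries. Hspe1, the mitochondrial HSP10, was highest in Vehicle 55 and Chow 17 too, at 73.3 and 54.5 CPM. It was at 43.6 CPM in PCN 5, whereas Hsp90ab1 was highest in PCN 27 at 1468 CPM. The part of fibre type in the members' levels was not tested across all groups. Members' values with a slow-fibre covariate are given under each comparison.

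**Figure D3:**
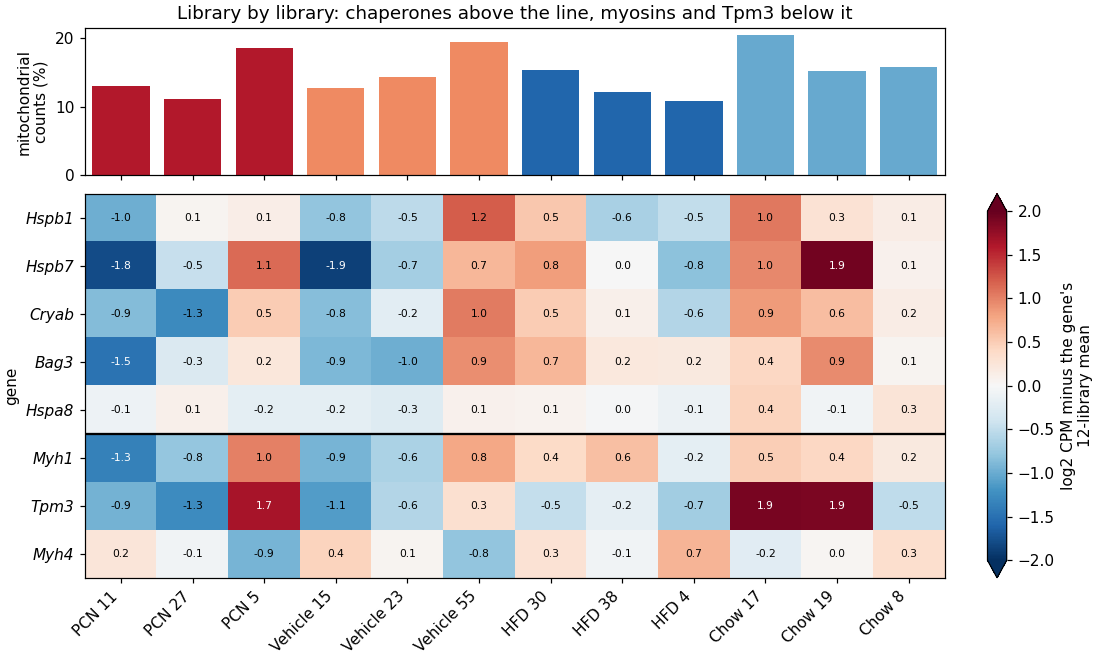
Lower panel, log2 CPM minus the 12-library mean of each gene, for 5 members above the line and Myh1, Tpm3 and Myh4 below it; upper panel, percent of counts from the mitochondrial genome. PCN 5, Vehicle 55, HFD 30, Chow 17, Chow 19 and Chow 8 are above the mean for Hspb7, Cryab and Bag3. PCN 5 is above by only 0.22 for Bag3, and Chow 8 by only 0.092, 0.15 and 0.058 for Hspb7, Cryab and Bag3. Hspa8 stays within 0.5 of its mean.

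The genes with profiles nearest to Cryab over the 12 libraries were Tmem65, an inner mitochondrial membrane protein, Mdh2, the mitochondrial malate dehydrogenase, and Nceh1, a neutral cholesterol ester hydrolase. Likeness was the root mean square difference of standardised log2 CPM among 7972 named genes, and it was 0.19, 0.20 and 0.22 SD for the 3 genes. The other small heat shock members lay farther from Cryab, Hspb7 at 0.56 and Hspb1 at 0.66 SD, with Bag3 at 0.65 SD and Hspa8 at 1.06 SD. Nearest to Hspa8 were Slc2a12 (0.50 SD), a glucose transporter, Chordc1 (0.51 SD), an HSP90 co-chaperone, and Mospd2 (0.53 SD). These are descriptions over libraries that share groups and depth.

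HFD against Chow sets the diets side by side without injection. All 7 members had lower fitted levels in HFD than in Chow, but none passed the test, and HFD and Chow libraries overlapped for each. In edgeR's quasi-likelihood test, 0 of 7 passed an adjusted p of 0.05, 0 had an unadjusted p under 0.05, and DESeq2 called 0. Over all 12686 genes tested, edgeR called 0 (0.00%), 977 had an unadjusted p under 0.05 (7.70%, with 3.92% lower and 3.78% higher), DESeq2 called 44 (0.342% of those it adjusted), and 12.8% had groups that did not overlap. Fitted levels were lower in HFD for 49.9% of all genes. The members' median log2 fold change was -0.47, beside 0.00043 for all genes.

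Hsp90aa1 averaged 40.0 ± 6.42 CPM in HFD and 83.1 ± 66.9 CPM in Chow (SD, n = 3 each), with a log2 fold change of -1.03 ± 0.55 (SE; edgeR adjusted p = 0.673). Without Chow 17 that value was -0.15. Hspb7 averaged 229 ± 128 CPM in HFD and 467 ± 286 CPM in Chow (-1.01 ± 0.60, edgeR adjusted p = 0.700), and was at -0.42 without Chow 19 and -1.53 without HFD 30. Hspb1 averaged 92.3 ± 44.5 CPM in HFD and 145 ± 52.1 CPM in Chow (-0.64 ± 0.37, edgeR adjusted p = 0.684), and was at -0.32 without Chow 17 and -1.10 without HFD 30. Cryab averaged 296 ± 106 CPM in HFD and 416 ± 98.4 CPM in Chow (-0.47 ± 0.28, edgeR adjusted p = 0.685), and was at -0.23 without HFD 4 and -0.75 without HFD 30. The 95% interval for Cryab ran from 0.463-fold to 1.12-fold, and that for Hspb7 from 0.178-fold to 1.38-fold.

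The remaining 3 members had smaller differences. Hspa8 averaged 948 ± 60.2 CPM in HFD and 1124 ± 197 CPM in Chow (log2 fold change -0.23 ± 0.17, edgeR adjusted p = 0.749), with a 95% interval of 0.658-fold to 1.11-fold. Hsph1 averaged 73.9 ± 5.05 CPM in HFD and 78.9 ± 21.7 CPM in Chow (-0.079 ± 0.19), and Bag3 101 ± 20.2 CPM in HFD and 112 ± 35.1 CPM in Chow (-0.13 ± 0.23).

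Several of these values changed when Chow 17 and Chow 19, the Chow libraries high in slow-fibre transcripts, were left out. The part of fibre type in these changes was not tested, and leaving out whole libraries cannot set it apart from their other differences. Singly left out, the libraries did not act alike, with Hspb7 at -1.12 without Chow 17 and -0.42 without Chow 19. With both left out, the log2 fold changes of Hspb7, Bag3 and Hsph1 were 0.075, 0.32 and 0.38 in place of values below 0, while Hspa8 was at -0.27, Hspb1 at -0.24, Hsp90aa1 at -0.075 and Cryab at -0.068. Chow then had 1 library, whose spread was taken to be that of HFD. A covariate was also fitted, the level of Tpm3, Casq2 and Myh7b (mean log2 CPM). It was 3.26, 3.34 and 2.06 in HFD 30, 38 and 4, and 4.22, 4.23 and 2.84 in Chow 17, 19 and 8. Chow 17 and Chow 19 thus stood less far from the others in it than in the 9-marker sums. With it, Bag3 was at 0.20, Hsph1 at 0.22, Hspb7 at -0.071 and Cryab at -0.020. Hsp90aa1 was then at -0.38, Hspb1 at -0.27 and Hspa8 at -0.20. Neither fit called a member.

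**Figure D4:**
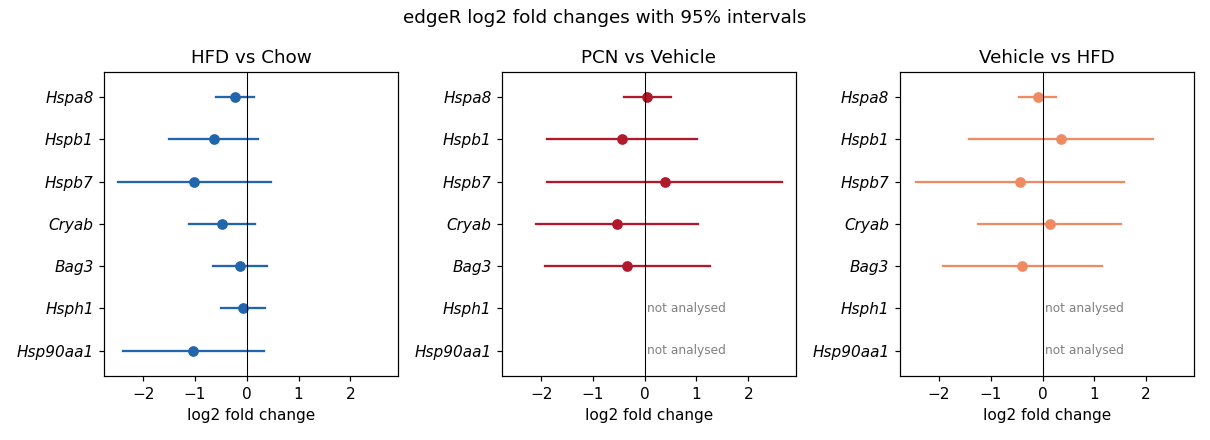
Log2 fold changes (points) with 95% intervals (lines) from edgeR for the members in HFD vs Chow, PCN vs Vehicle and Vehicle vs HFD; positive values mean higher in the first-named group. Every interval spans 0, and Hspa8 has the narrowest one in each of the 3 comparisons.

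PCN against Vehicle sets the compound against its carrier on the high-fat diet. None of the 5 members analysed passed, 3 were lower and 2 higher in PCN than in Vehicle, and the libraries of PCN and Vehicle overlapped for all of them. By edgeR 0 of 5 passed, with 0 at an unadjusted p under 0.05, and DESeq2 called 0. Over all 12833 genes edgeR called 0 (0.00%), 362 had an unadjusted p under 0.05 (2.82%, with 1.47% lower and 1.35% higher), DESeq2 called 0 (0.00%), and 8.48% had groups that did not overlap. Fitted levels were lower in PCN for 47.7% of all genes. The members' median log2 fold change was -0.33, beside 0.014 for all genes.

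Cryab averaged 223 ± 155 CPM in PCN and 325 ± 224 CPM in Vehicle (-0.54 ± 0.65, SE; edgeR adjusted p = 0.998). Hspb1 averaged 87.3 ± 32.5 CPM in PCN and 119 ± 97.0 CPM in Vehicle (-0.44 ± 0.60), Bag3 60.9 ± 31.8 CPM in PCN and 77.0 ± 63.1 CPM in Vehicle (-0.33 ± 0.66), and Hspb7 220 ± 206 CPM in PCN and 169 ± 139 CPM in Vehicle (0.38 ± 0.92). Single libraries set the sign of all 4. Without Vehicle 55 Cryab was at 0.16, Hspb1 at 0.47 and Bag3 at 0.58, and without PCN 5 Hspb7 was at -0.70. Without PCN 11 Bag3 was at 0.013, and without Vehicle 15 Hspb7 was at -0.035. The 95% interval of Hspb7 ran from 0.269-fold to 6.31-fold. Hspa8, at 921 ± 98.9 CPM in PCN and 889 ± 117 CPM in Vehicle (0.054 ± 0.21), had an interval from 0.753-fold to 1.43-fold. With the slow-fibre covariate Cryab was at -0.60, with an unadjusted edgeR p of 0.0122 and an adjusted p of 0.923 (0.937 to 1 under the other alternatives), beside an unadjusted p of 0.436 without it. Hspb1 was then at -0.27, Bag3 at -0.24, Hspb7 at 0.28 and Hspa8 at 0.053, and none passed.

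Vehicle against HFD set injected Vehicle mice against uninjected HFD mice, both on the high-fat diet, and joined counts from both tables. None of the 5 members passed edgeR's test, with 0 at an unadjusted p under 0.05 and 0 called by DESeq2, while over all 12746 genes edgeR called 193 (1.51%), 17.8% had an unadjusted p under 0.05 (9.17% lower and 8.66% higher), DESeq2 called 587 (6.50% of those it adjusted) and 23.5% had groups that did not overlap. The members' median log2 fold change was -0.093, beside -0.0014 for all genes, with 3 members lower and 2 higher in Vehicle, and 50.1% of all genes lower.

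Bag3 averaged 77.0 ± 63.1 CPM in Vehicle and 101 ± 20.2 CPM in HFD (log2 fold change -0.39 ± 0.60, SE; edgeR adjusted p = 0.806). Without Vehicle 55 it was at -1.32 ± 0.17 and passed (edgeR adjusted p = 0.00178, against 0.427 to 0.981 under the other alternatives), in a fit that called 9.05% of all genes. Both remaining Vehicle libraries then lay below all 3 HFD libraries. Without Vehicle 23 it was at -0.079, without Vehicle 15 at -0.096 and without HFD 30 at -0.22. Hspb1 (0.36 ± 0.69) and Cryab (0.14 ± 0.55) were at -0.56 and -0.58 without Vehicle 55, and Cryab was at -0.10 without HFD 4. Hspb7 was at -0.44 ± 0.78, at -1.32 without Vehicle 55 and at 0.083 without HFD 30. Hspa8 was at -0.093 ± 0.16, with a 95% interval of 0.731-fold to 1.20-fold. With the slow-fibre covariate, added after the data were seen, Hspb7 was at -0.59 (edgeR adjusted p = 0.167, against 0.393 to 0.992 under the other alternatives), Bag3 at -0.59, Hspb1 at 0.16, Cryab at 0.039 and Hspa8 at -0.086. The test of any difference among the 4 groups called 0 of the 5 members, with 0 at an unadjusted p under 0.05, and 24 of 13375 genes (0.179%), with 15.5% of genes at an unadjusted p under 0.05. DESeq2's likelihood ratio test called 0 members, and 771 genes (6.56% of those it adjusted).

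The wider chaperone network and related genes were described by 11 lists of 117 genes in all. The lists include Z-disc partners of Bag3, such as Flnc, and immediate early genes, such as Btg2. The pooled counts are therefore not of chaperones alone. By edgeR 0 of the 111 list genes tested passed in HFD against Chow, 0 of 109 in PCN against Vehicle and 0 of 107 in Vehicle against HFD. At an unadjusted p under 0.05 there were 2 higher and 6 lower in HFD against Chow, 2 higher and 2 lower in PCN against Vehicle, and 17 higher and 6 lower in Vehicle against HFD. Over all genes the last comparison had 8.66% higher and 9.17% lower at that p. DESeq2 called 0 list genes in HFD against Chow, 0 in PCN against Vehicle and 8 in Vehicle against HFD, where it called 6.50% of all genes it adjusted. The 8 were Pfdn5, Cct4, Clpp, Hspe1, Hsbp1, Dnajc8, Flnc and Btg2.

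Other small heat shock genes did not pass, with 4 of 5 negative in HFD against Chow (median -0.034). Hspb6, an HSP20 family member of muscle, averaged 143 ± 68.7 CPM in Vehicle and 234 ± 36.1 CPM in HFD (log2 fold change -0.71 ± 0.32, SE). Like Cryab, Hspb6 was high in PCN 5 and Vehicle 55. It was at 63.6, 66.9 and 222 CPM in PCN 11, 27 and 5, and at 93.8, 113 and 221 CPM in Vehicle 15, 23 and 55. HFD libraries held 208 to 275 CPM of Hspb6 and overlapped Vehicle. Hspb2, the neighbour of Cryab, stayed between 15.3 and 25.7 CPM in all 12 libraries, without the high values of PCN 5 and Vehicle 55 seen for Cryab. Hspb11, an intraflagellar transport protein despite its symbol, had a log2 fold change of 0.67 ± 0.29 in PCN against Vehicle (edgeR adjusted p = 0.998).

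In the HSP70 and J-domain lists, 5 of 8 and 7 of 11 genes were negative in HFD against Chow, with medians of -0.051 and -0.062. Hspa1l, an HSP70 best known from testis, averaged 17.1 ± 2.95 CPM in HFD and 25.2 ± 5.00 CPM in Chow (-0.54 ± 0.18, edgeR adjusted p = 0.635). Dnaja4, a J-domain partner of HSP70, averaged 59.5 ± 21.5 CPM in HFD and 106 ± 36.2 CPM in Chow (-0.81 ± 0.33). Dnajc8, a J-domain protein linked to splicing, averaged 41.8 ± 1.16 CPM in Vehicle and 29.3 ± 1.83 CPM in HFD (0.51 ± 0.11, edgeR adjusted p = 0.0572).

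Co-chaperones for nucleotide exchange and degradation had a median of -0.23 in HFD against Chow, with 6 of 8 negative, and of 0.17 in Vehicle against HFD, with 7 of 8 positive. These comparisons share the HFD libraries. Stub1, the ubiquitin ligase CHIP that receives clients from HSP70, averaged 27.8 ± 1.03 CPM in HFD and 35.4 ± 1.31 CPM in Chow (-0.33 ± 0.12, edgeR adjusted p = 0.635). Against HFD, Stub1 averaged 36.8 ± 3.16 CPM in Vehicle (0.40 ± 0.12, edgeR adjusted p = 0.120). Bag2, an HSP70 exchange factor, was at -0.43 ± 0.18 in HFD against Chow, and Bag5, another, at 0.53 ± 0.20 in Vehicle against HFD.

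HSP90 and its co-chaperones had medians of -0.097 in HFD against Chow, -0.0042 in PCN against Vehicle and 0.097 in Vehicle against HFD. The same HFD libraries enter the HFD against Chow and Vehicle against HFD medians. Hsp90ab1, the constitutive HSP90, averaged 1141 ± 284 CPM in PCN, 999 ± 83.3 CPM in Vehicle, 821 ± 70.9 CPM in HFD and 845 ± 26.3 CPM in Chow. Fkbp5, a co-chaperone of steroid receptors and a glucocorticoid target, averaged 77.7 ± 4.68 CPM in PCN and 98.5 ± 5.45 CPM in Vehicle (-0.34 ± 0.15), with groups that did not overlap. Among regulators, Hsf1, heat shock factor 1, averaged 26.9 ± 1.77 CPM in Vehicle and 21.9 ± 2.06 CPM in HFD (0.30 ± 0.13, edgeR adjusted p = 0.244) and differed by 0.025 ± 0.17 in HFD against Chow. Hsbp1, an inhibitor of heat shock factor, was at 0.45 ± 0.12 in Vehicle against HFD (edgeR adjusted p = 0.0820).

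The chaperonin and prefoldin list had all 14 genes positive in Vehicle against HFD, 7 of them at an unadjusted p under 0.05, against 8.66% of all genes, and a median of 0.34. Pfdn5, a prefoldin subunit, averaged 69.7 ± 6.84 CPM in Vehicle and 47.5 ± 1.69 CPM in HFD (0.55 ± 0.12, edgeR adjusted p = 0.0548). Cct4, a chaperonin subunit that folds actin and tubulin, averaged 71.0 ± 8.47 CPM in Vehicle and 49.0 ± 2.39 CPM in HFD (0.53 ± 0.13, edgeR adjusted p = 0.0680). In HFD against Chow, 12 of the 14 were negative, with a median of -0.16, and Cct4 was at -0.36 ± 0.14. Both comparisons use the same HFD libraries, in which Cct4 was at 47.6 to 51.8 CPM, beside 52.6 CPM in Chow 19.

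Mitochondrial chaperones were positive for 9 of 10 genes in Vehicle against HFD (median 0.14, 3 at an unadjusted p under 0.05, beside 8.66% of all genes). Hspe1, the HSP10 partner of Hspd1, was at 32.2, 35.8 and 73.3 CPM in Vehicle 15, 23 and 55, and at 23.1, 23.9 and 20.9 CPM in HFD 30, 38 and 4 (1.06 ± 0.31, edgeR adjusted p = 0.150). Clpp, the matrix protease, averaged 20.0 ± 0.969 CPM in Vehicle and 13.6 ± 1.28 CPM in HFD (0.55 ± 0.13, edgeR adjusted p = 0.0682). Hspd1 itself, HSP60, averaged 146 ± 56.8 CPM in Vehicle and 133 ± 4.58 CPM in HFD. Only Vehicle 55, at 211 CPM, lay above the HFD range of 128 to 137 CPM. Vehicle 15 and Vehicle 23, at 106 and 121 CPM, lay below it. Endoplasmic reticulum chaperones had medians of -0.034 in HFD against Chow, 0.13 in PCN against Vehicle and -0.089 in Vehicle against HFD. Hspa5, the HSP70 of that compartment, averaged 97.1 ± 11.6 CPM in PCN, 98.9 ± 10.6 CPM in Vehicle, 105 ± 10.5 CPM in HFD and 111 ± 17.6 CPM in Chow.

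Z-disc partners of Bag3 had medians of -0.090 in HFD against Chow, 0.045 in PCN against Vehicle and -0.083 in Vehicle against HFD. Flnc, filamin C, was at 763, 786 and 1334 CPM in Vehicle 15, 23 and 55, and at 2885, 1480 and 1612 CPM in HFD 30, 38 and 4. Those groups did not overlap (-1.05 ± 0.31, edgeR adjusted p = 0.131). Immediate early genes, which respond to tissue handling as chaperones can, had a median of -0.55 in Vehicle against HFD with 10 of 11 negative, and of -0.21 in HFD against Chow with 10 of 14 negative. Junb, one of them, was at 26.3, 16.2 and 59.1 CPM in HFD 30, 38 and 4, and at 27.8, 135 and 56.3 CPM in Chow 17, 19 and 8. It was at 26.6, 16.2 and 17.9 CPM in PCN 11, 27 and 5, and at 19.7, 13.6 and 16.3 CPM in Vehicle 15, 23 and 55. Chow 19 was the highest library for Junb, Hspb7 and Bag3, whereas Vehicle 55, high in Cryab, Hspb1 and Bag3, was low in Junb, and PCN 11, lowest in Hspb1 and Bag3, had the highest Junb of PCN and Vehicle. The part of handling in the members' levels was not tested.

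**Figure D5:**
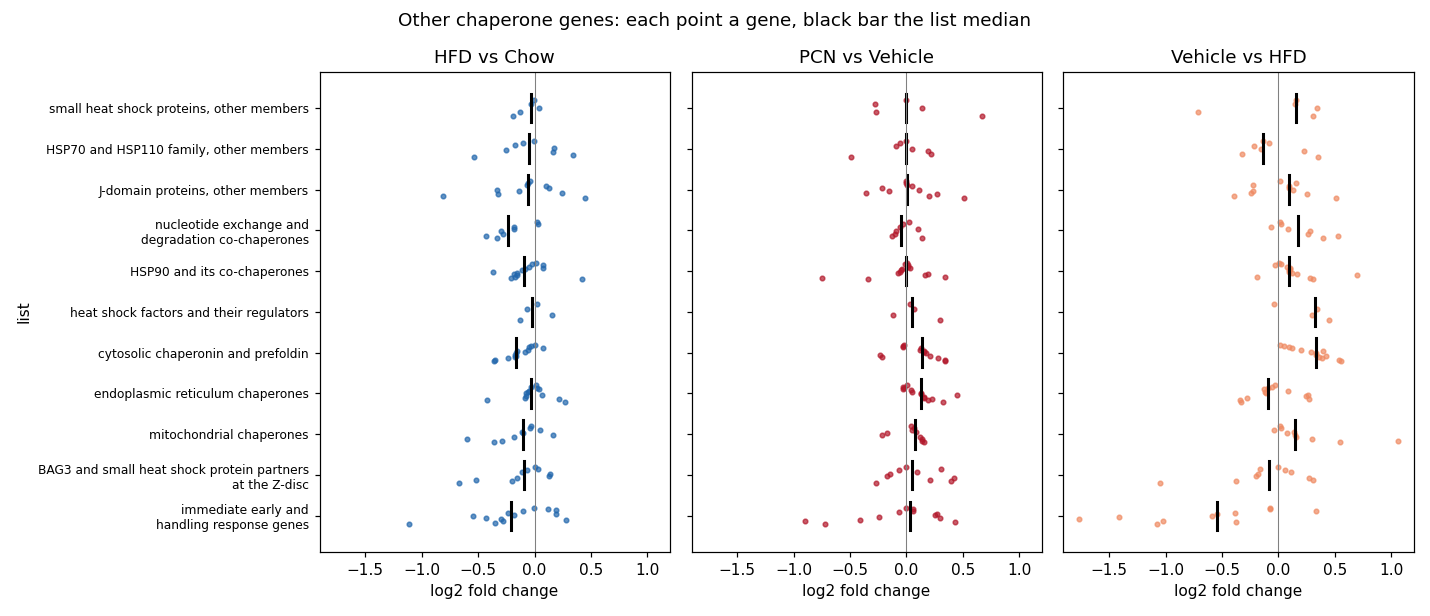
Log2 fold changes of the genes in 11 chaperone-related lists (points) with the list median (black bars), for HFD vs Chow, PCN vs Vehicle and Vehicle vs HFD. The chaperonin and prefoldin genes all lie above 0 in Vehicle vs HFD, with a median of 0.34, and the immediate early genes have a median of -0.55 there.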

How the data were processed

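RNA-seq of 12 skeletal muscle libraries was analysed. Raw counts for each Ensembl gene were deposited in 2 tables, 6 libraries each. HISAT2, HTSeq and DESeq2, with GRCm38 and mm10, were used per the submitters' processing notes. The sources used here give no versions, strand setting or annotation. Coordinates are those of the tables, written 1-based, and equal GENCODE M21 for the members.

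The 6 libraries of a comparison entered 1 fit in edgeR 4.0.16 under R 4.3.3 (TMM, default expression filter with minimum count 10, robust quasi-likelihood F test) and Benjamini-Hochberg adjustment over all genes tested at 0.05. Vehicle against HFD and the 4-group test used the 21976 genes in both tables. A positive log2 fold change means higher in the first-named group. The standard error (SE) was taken as its size divided by the square root of F. Levels use TMM over the shared genes of all 12 libraries, and lengths are unions of GENCODE M21 exons. Log2 profiles used CPM + 0.5.

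Replicate libraries differed by far more than counting noise (chi-square averaged over genes, 19.6 to 108). Such an average can be dominated by the most abundant transcripts and does not describe a typical gene. The members and lists were chosen with earlier results of these data known. Members are named irrespective of result. From each list, up to 3 genes with the lowest p in HFD against Chow and up to 2 in each other comparison could be named, with Hsf1, Hsp90ab1, Hspa5 and Hspd1 in any case. Profiles were compared for Cryab and Hspa8. Other alternatives were DESeq2 1.42.0, its size factors, other filters, non-robust dispersion, all 12 libraries in 1 fit, a slow-fibre covariate (for Vehicle against HFD added after seeing the data), and each library left out. The edgeR and DESeq2 steps were tested on simulated counts. These had planted changes larger than those fitted for the members, and the spread of a typical gene at each level. They do not show how the steps perform on genes as variable as Hspb7, Cryab, Hspb1 and Bag3.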

Additional observations from a re-analysis of the deposited data

How the results depend on the processing

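No paired analysis was possible because the library numbers are unique and no number is shared between groups. The count of members passing stayed at 0 under every alternative, except for Bag3 in Vehicle against HFD without 1 library, where counts over single libraries left out ran from 0 to 1. Counts over all genes moved more. In HFD against Chow, DESeq2 called 44 and no expression filter 237, beside 0, and single libraries left out gave 0 to 219. In PCN against Vehicle, no filter gave 21, and single libraries left out gave 0. In Vehicle against HFD, beside 193, DESeq2 called 587, no filter 571, non-robust dispersion 47, all 12 libraries in 1 fit 0 and the slow-fibre covariate 739, and single libraries left out gave 0 to 1180. For the 4-group test, beside 24, DESeq2's likelihood ratio test called 771, no filter 185 and a minimum count of 50 gave 14, and single libraries left out gave 3 to 216. Outside the fits without single libraries, signs turned in HFD against Chow: with the slow-fibre covariate for Hsph1 (0.22) and Bag3 (0.20), and without Chow 17 and Chow 19 for Hsph1 (0.38), Hspb7 (0.075) and Bag3 (0.32). With single libraries left out, log2 fold changes in HFD against Chow ran from -0.31 to 0.14 for Bag3, -0.26 to 0.12 for Hsph1, -1.10 to -0.32 for Hspb1 and -0.75 to -0.23 for Cryab. In PCN against Vehicle they ran from -0.74 to 0.58 for Bag3, -1.27 to 0.16 for Cryab, -0.033 to 0.15 for Hspa8, -0.77 to 0.47 for Hspb1 and -0.70 to 1.25 for Hspb7. In Vehicle against HFD they ran from -1.32 to -0.079 for Bag3, -0.58 to 0.47 for Cryab, -0.56 to 0.83 for Hspb1 and -1.32 to 0.083 for Hspb7. The members' median ran from -0.75 to -0.19 in HFD against Chow, -0.70 to 0.47 in PCN against Vehicle and -0.58 to 0.083 in Vehicle against HFD. The cause of these moves was not tested. Each member had at least 413 counts in every library where it was analysed, so counting error is small beside the spread between libraries, and 3 libraries a group limit the precision.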
